A study of Mus musculus with 24 samples.

Results

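Matrix metalloproteinases (MMPs), ADAMTS proteases and the tissue inhibitors of metalloproteinases (TIMPs) were followed through the lacrimal gland (LG) and through cultured lacrimal gland stem cells (LGSCs). Members were all protein-coding genes whose GENCODE mouse symbol is Mmp, Adamts or Timp followed by a number, with pseudogenes left out. The rule found 45 of the 63862 genes listed, which were 22 Mmp, 19 Adamts and 4 Timp genes. Polyadenylated RNA of C57BL/6 mice was measured by RNA sequencing. LGSCs came from the glands of mice aged 6 to 8 weeks and grew as spheres in Matrigel, a basement membrane gel, in serum-free medium with EGF, FGF10, Wnt3A and the kinase inhibitor Y-27632. Spheres of passage 2 were collected after 5, 7, 10 and 14 days of culture, and whole glands were taken on embryonic days E17.5 and E19.5 and from adults. There were 3 libraries per group and 2 for day 5, 20 in all, and 1 further library of passage 10 spheres at day 7 is given by its values alone. The labels give no age for the adult glands and name no separate cultures or animals, nor do they say whether glands were pooled, so that p-values here measure the spread between these libraries, which may be technical.

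MMPs are zinc-dependent proteases that cut collagens, laminins, fibronectin and many cell surface proteins, and most are made as inactive precursors that another protease must cleave. Some are secreted, such as collagenases, gelatinases and stromelysins, while membrane-type MMPs stay anchored on the cell that made them. ADAMTS proteases are secreted and carry thrombospondin repeats, and their best known tasks are the trimming of procollagens and the cleavage of versican and related proteoglycans. TIMPs bind the active site of MMPs, and Timp3 also blocks several ADAM and ADAMTS proteases. In branching glands these families are known for remodelling the basement membrane and the stroma around epithelial buds.

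The Mmp genes of mouse chromosome 9 lie side by side, and the promoters of 4 of them, whose levels are described further on, are shown first. RefSeq promoter windows of 300 bases, from 250 before to 50 after the start site, were found for 31 of the 45 members. The motif TGANTCA, which the AP-1 transcription factors are known to bind and which reads the same on both strands, was present in the windows of 7 of the 9 Mmp genes of chromosome 9 with an entry (Mmp1b, Mmp3, Mmp7, Mmp10, Mmp12, Mmp13 and Mmp20). No window of the other 22 members held it, against 7.81% of the 32851 windows of all genes. The lines give the 100 bases before the start site on the plus strand of build GRCm38.p6, with the motif in capitals, for these 4 members. Mmp12 has 2 start sites in the table, and the one with a match is shown.
Mmp10 (chr9:7502242-7502341): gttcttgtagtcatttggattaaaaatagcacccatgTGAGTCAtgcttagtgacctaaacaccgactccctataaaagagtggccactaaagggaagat
Mmp3 (chr9:7445722-7445821): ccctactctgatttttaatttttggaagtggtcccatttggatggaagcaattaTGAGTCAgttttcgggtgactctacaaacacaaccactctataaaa
Mmp12 (chr9:7347274-7347373): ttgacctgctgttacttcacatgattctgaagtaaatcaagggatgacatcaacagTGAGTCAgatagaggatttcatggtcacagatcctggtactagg
Mmp13 (chr9:7272414-7272513): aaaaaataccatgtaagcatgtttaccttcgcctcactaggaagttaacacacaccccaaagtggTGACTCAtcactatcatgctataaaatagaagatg
The motif began 63, 46, 44 and 35 bases before the start site of Mmp10, Mmp3, Mmp12 and Mmp13. A match is a description of these letters and not a measured site.

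Levels are FPKM as the authors deposited them, which are read counts divided by transcript length and by a scale set for each library. Whole reads could be recovered from these values, 6434734 to 9258020 per library, and members took 2028 to 25511 reads of a library. One read was worth 0.0069 to 0.467 FPKM, depending on the library and on the length of the member. Adult LG replicates 1 and 2 spent 60.4% and 59.6% of their reads on 10 genes, replicate 3 spent 31.3%, and no other library spent more than 8.1%. The scale followed each library's own reads, which were 0.832 to 1.129 times it, in all but these replicates 1 and 2, where reads were 2.667 and 2.567 times the scale. Divided by these ratios, adult levels of those 2 libraries are lower by as much. Where a described result turns on this, the value scaled to recovered reads is given beside the deposited one. Relative to the median library, the deposited scale was 0.925 to 1.059 times a median-of-ratios factor in all 20 libraries. It was 0.962 and 0.952 times that factor in adult LG replicates 1 and 2. The factor is the median, over genes, of a library's reads divided by the gene's geometric mean over libraries. Scaling to recovered reads sets this factor aside. Some listed levels may not be full levels. Of 5333 genes at 10 FPKM or more in the passage 10 library, 50.6% had a day 7 mean under 0.1 times that value in the passage 2 spheres, and 577 were listed at 0 in all 20 libraries, among them the epithelial genes Epcam and Krt8. Mmp14 and Adamts1 were the 2 members of this kind with 10 FPKM or more in the passage 10 library. Cdh1, an epithelial adhesion gene, was at 388 to 916 FPKM in spheres, whereas Krt5, Krt14 and Trp63, markers of basal and progenitor cells, reached 5.52, 17.8 and 0.75 FPKM at most.

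Markers of other cell types also differed between the groups. Summed over 10 mesenchyme and fibroblast markers, spheres had 0.604 to 5.61 FPKM, adult glands 182 to 368 and embryonic glands 4920 to 5900. Of these markers, Pdgfra stayed at 0.0338 FPKM or less in spheres and Col3a1 was listed at 0 in 8 of 11 sphere libraries. Endothelial markers summed to at most 0.419 FPKM in spheres, 141 to 231 in embryonic glands and 70.6 to 210 in adult glands. Leukocyte markers summed to 2.21 at most in spheres, 35.8 to 52.8 in embryonic glands and 61.5 to 110 in adult glands, and in spheres Ptprc reached 0.0489 FPKM and Adgre1 was listed at 0. Cartilage and bone markers summed to 208 to 332 FPKM in embryonic glands, 9.40 to 50.8 in adult glands and 10.8 to 20.6 in spheres. Scaled to recovered reads, the adult sums were 68.2 to 334 FPKM for mesenchyme, 26.5 to 190 for endothelium and 23.1 to 99.7 for leukocytes, and the last overlapped with the embryonic range of 36.8 to 52.6. Between the embryonic ages, epithelial markers summed to 330 to 472 FPKM at E17.5 and 759 to 950 at E19.5, and myoepithelial markers to 140 to 298 and 1010 to 1100. These rises came mostly from the epithelial marker Krt18 and the myoepithelial marker Acta2. Krt18 was at 196 to 294 FPKM at E17.5 and 594 to 803 at E19.5, and Acta2 at 139 to 296 and 1010 to 1090. Cdh1 overlapped, at 132 to 178 and 147 to 164 FPKM. The part of these markers in the values that follow was not tested. In whole glands, fewer cells of a type and less RNA per cell cannot be told apart.

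Across the 20 libraries, 35 members reached 0.5 FPKM in at least 1 library. Adamts4, Adamts5, Adamts12 and Adamts14 were listed at 0 in all 20. The passage 10 library, with 25181804 recovered reads, had 62, 4, 4 and 10 reads of them, and the listed 0 may not be a full level. Mmp2, Mmp11, Mmp20, Mmp28, Adamts13 and Adamts16 were above 0 in some library but under 0.5 FPKM in each. By group mean, 14 members were at 0.5 FPKM or more in spheres at day 7, 26 at E17.5, 24 at E19.5 and 20 in the adult gland. The summed level of the Adamts family was 3.68 to 13.9 FPKM in spheres, 96.9 to 165 in embryonic glands and 10.1 to 19.1 in adult glands, so that the embryonic range lay above both others, as it did on the scale of recovered reads. The summed Mmp level, in contrast, overlapped between groups, at 58.4 to 221 FPKM in spheres, 77.8 to 101 in embryonic glands and 54.2 to 107 in adult glands. Timp genes summed to 220 to 910, 205 to 280 and 90.7 to 277 FPKM. Scaled to recovered reads, the adult sums were 20.3, 29.2 and 96.8 FPKM for Mmp and 34.0, 53.1 and 251 for Timp genes, so that adult LG replicates 1 and 2 fell below all other libraries in both. The ratio of the Timp sum to the Mmp and Adamts sum was 2.31 to 5.88 in spheres, 0.986 to 1.25 in embryonic glands and 1.41 to 2.20 in adult glands. These 3 ranges, which do not depend on the scale, did not overlap. They do depend on the listed levels of members such as Mmp14 and Adamts1, which may not be full levels.

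**Figure D1:**
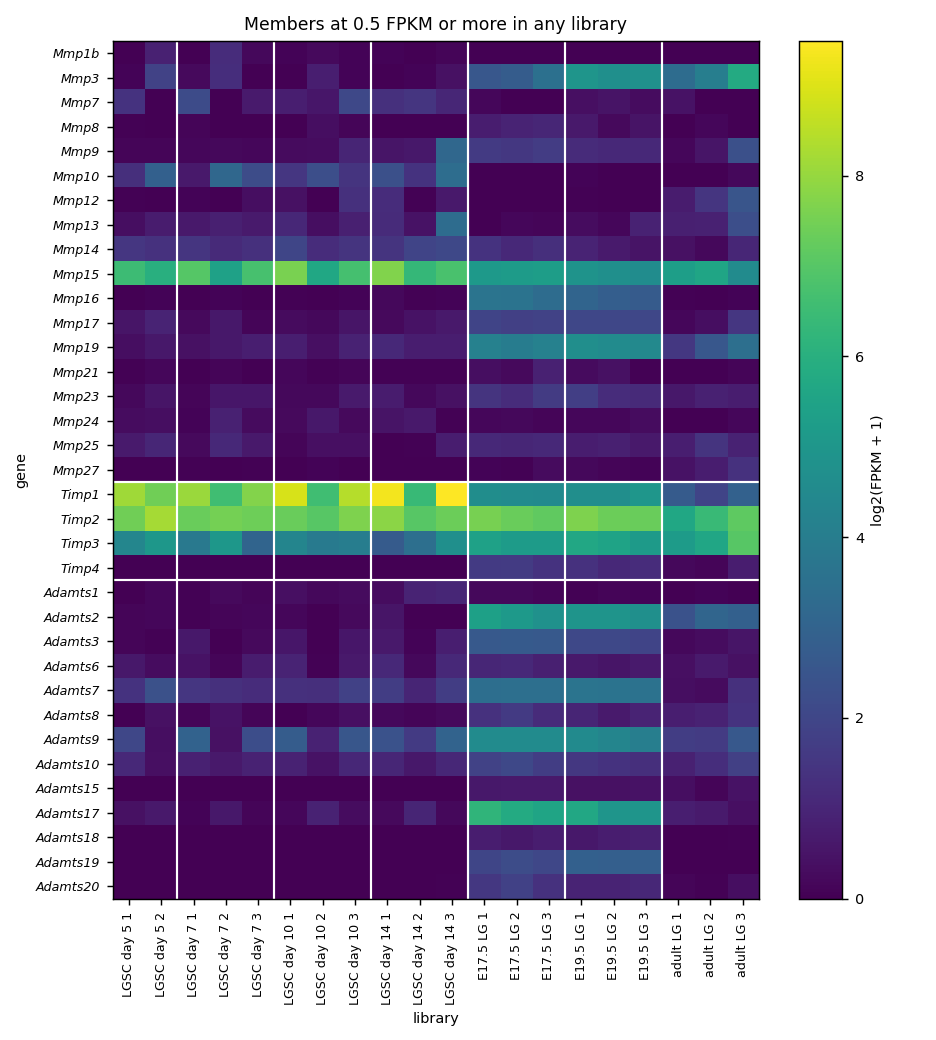
Level of the 35 members that reached 0.5 FPKM in any library, as log2(FPKM + 1), with genes in rows, the 20 libraries in columns and white lines between groups and families. Timp1 and Mmp15 are brightest in spheres, while most Adamts genes are bright in the 6 embryonic libraries alone.

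The 4 inhibitors behaved differently from each other. Timp1, a secreted inhibitor that many cells raise upon growth factor or cytokine stimulation, was higher in spheres than in any gland. Its level in spheres was 284 and 173 FPKM on day 5, 266, 94.2 and 214 on day 7, 478, 95.3 and 348 on day 10 and 641, 82.6 and 719 on day 14. In tissue, Timp1 was at 24.3, 22.7 and 22.0 FPKM at E17.5, 24.5, 24.5 and 30.4 at E19.5 and 5.60, 2.84 and 6.79 in the adult gland. Every sphere library lay above every tissue library, and the adult gland lay below the embryonic gland. Sphere replicate 2 was the lowest of its day at all 4 times. The same replicate was also the lowest of its day for Mmp15, for Adamts9, for Adamts6 and for the epithelial marker Krt18, at 130 to 176 FPKM against 689 to 1730 in the other replicates, and the highest of its day for the neuronal marker Tubb3, at 143 FPKM on day 7 against 2.49 and 3.47. The part of these markers in the levels was not tested. Differences here and below were tested with limma on log2(FPKM + 1), with p-values adjusted by Benjamini-Hochberg over all genes tested, and each difference is on that scale. Where a member had a mean under 0.5 FPKM in one group of a comparison of 2 groups, it was tested through the other group alone and had to differ. Its difference is then given with its SE and without a p. An adjusted p of such a member is printed only for alternatives that lost its call. Timp1 was higher in day 7 spheres than in adult glands by 4.92 ± 0.46 (SE, adjusted p = 0.000739), a ratio of means of 37.7, and higher than at E17.5 by 2.88 ± 0.37 (SE, adjusted p = 0.00128), a ratio of 8.33. It was also higher at E17.5 than in the adult by 2.04 ± 0.25 (SE, adjusted p = 0.000198). All 4 calls of Timp1, that at E19.5 included, held under each alternative and each left-out library.

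Timp2, which inhibits MMPs and also assists Mmp14 in activating the gelatinase Mmp2, was abundant throughout. Spheres held 171 and 294 FPKM on day 5, 161, 181 and 166 on day 7, 161, 130 and 199 on day 10 and 228, 128 and 165 on day 14. Glands held 184, 159 and 145 FPKM at E17.5, 203, 163 and 161 at E19.5 and 48.8, 85.7 and 140 in the adult gland. Embryonic glands and spheres overlapped, and adult LG replicate 3 came close to the lowest embryonic library. Day 7 spheres were not called different from E17.5, at 0.06 (95% interval -0.20 to 0.32, adjusted p = 0.661). Adult glands lay below the embryonic ones, by 0.94 ± 0.33 (SE, adjusted p = 0.0402) for E17.5, but this call was lost in 8 of 9 fits with 1 library left out, with adjusted p up to 0.115, and was kept only without adult LG replicate 3. It was also lost with no filter and with the replicate block (adjusted p = 0.0692 and 0.0712). Scaled to recovered reads the difference was 1.94 ± 0.57 (adjusted p = 0.0167). For E19.5 the difference was 1.05 ± 0.33 (SE, adjusted p = 0.0262), and it was lost with the replicate block and without adult LG replicate 2 or any E19.5 library.

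Timp3, which binds to the extracellular matrix and inhibits ADAM and ADAMTS proteases, had lower values in all spheres than in embryonic glands, and no test passed. Sphere libraries had 19.7 and 31.6 FPKM on day 5, 13.3, 31.2 and 7.35 on day 7, 19.2, 13.9 and 15.4 on day 10 and 5.66, 10.0 and 25.4 on day 14, and glands had 42.5, 35.9 and 36.2 FPKM at E17.5, 50.9, 44.3 and 34.8 at E19.5 and 36.1, 47.8 and 130 in the adult gland. Day 7 spheres, at most 31.2 FPKM, did not overlap with E17.5 or adult glands, yet the adjusted p was 0.058 against E17.5 and 0.0531 against adult glands. Adult LG replicate 3, at 130 FPKM, stood well above the other adult libraries. Scaled to recovered reads, adult glands had 13.5, 18.6 and 118 FPKM and overlapped with spheres, at 6.39 to 31.9, and the difference of E17.5 against adults turned from -0.66 to 0.32 (adjusted p = 0.701). Spheres at up to 31.9 and embryonic glands at 31.1 or more then overlapped as well. Of the exon bases of Timp3, 21.3% are shared with Syn3, and the strand setting of the counting is not given in the sources used here, so that reads of both genes may be mixed. Timp4, the inhibitor with the most restricted tissue range, was listed at 0 in all 11 sphere libraries. Its levels were 2.03, 2.13 and 1.59 FPKM at E17.5, 1.55, 1.13 and 1.28 at E19.5 and 0.141, 0.107 and 0.690 in the adult gland. The E17.5 mean of 1.92 FPKM was at least 98.0-fold above spheres at day 7, taking 3 reads over the group as the floor, and exceeded the adult mean 6.13-fold, by 1.18 ± 0.19 (SE).

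**Figure D2:**
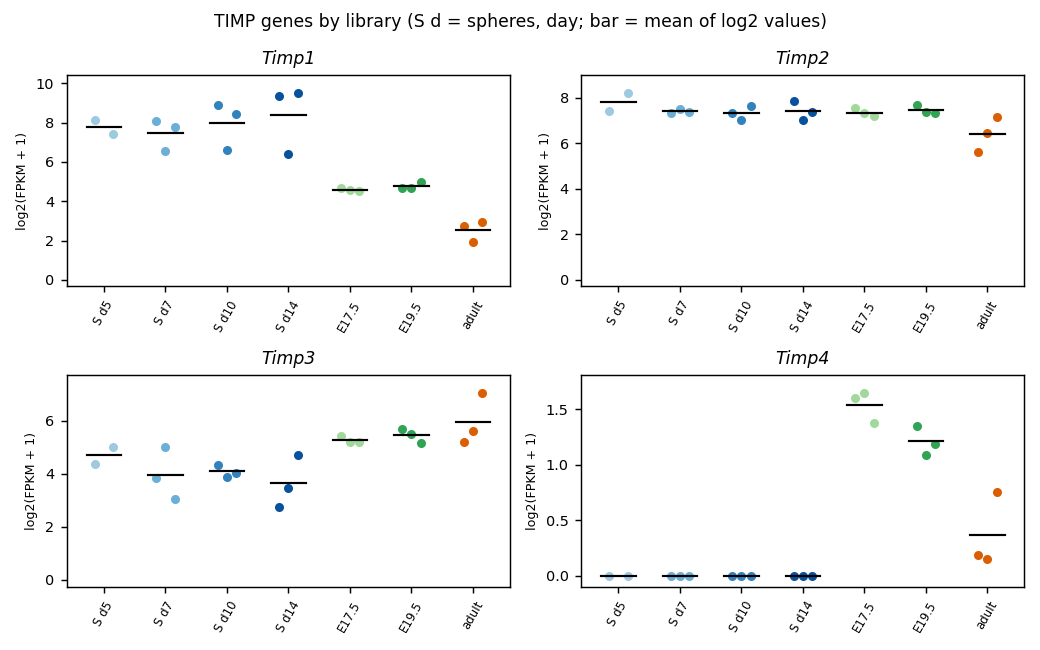
Level of Timp1, Timp2, Timp3 and Timp4 in each library as log2(FPKM + 1), by group, where points are libraries and bars are the mean of the log2 values. Timp1 is highest in spheres (82.6 to 719 FPKM), Timp2 is high in all groups and Timp4 is at 0 in all spheres.

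Among the membrane-type MMPs, Mmp15 had the highest level in all 20 libraries. Mmp15, a transmembrane protease of epithelial and other cells, made up 71.6% to 95.5% of the summed Mmp level in spheres, 27.5% to 46.5% in embryonic glands and 21.5% to 71.8% in adult glands. Its sphere levels were 89.8 and 62.6 FPKM on day 5, 127, 42.5 and 104 on day 7, 193, 49.3 and 103 on day 10 and 208, 79.8 and 107 on day 14, and its gland levels 34.1, 36.2 and 38.2 FPKM at E17.5, 28.7, 25.3 and 23.5 at E19.5 and 38.9, 47.3 and 22.9 in the adult gland. All sphere libraries lay above the embryonic range. The difference between day 7 spheres and E17.5 was 1.17 ± 0.39 (SE, adjusted p = 0.0496), with a ratio of means of 2.51. That call was at the edge of the threshold, since it was lost in 5 of 6 fits with 1 library left out (adjusted p up to 0.135) and kept only without day 7 replicate 2, the lowest sphere library. It was also lost in 5 of 7 other settings, with adjusted p from 0.0521 to 0.0789. Between E17.5 and adult glands the difference was 0.05 (95% interval -0.50 to 0.61, adjusted p = 0.873). Scaled to recovered reads, however, adult glands had 14.6, 18.4 and 20.8 FPKM and E17.5 glands 35.1, 37.7 and 39.4, with no overlap and a difference of 1.03 ± 0.18 (adjusted p = 0.00133).

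Mmp16, another transmembrane member, showed the reverse pattern. It was at 11.6, 11.3 and 9.24 FPKM at E17.5, 7.34, 6.07 and 5.57 at E19.5 and 0.0478, 0 and 0.0605 in the adult gland. Spheres had 0.0136 and 0.0680 FPKM on day 5, 0.0125, 0.0738 and 0 on day 7, 0.0261, 0.0150 and 0.0667 on day 10 and 0.142, 0.0389 and 0.0694 on day 14. Embryonic libraries all were at 5.57 FPKM or more, and no other library passed 0.142. The ratio of means was 297 for E17.5 against adult glands and 373 for E17.5 against day 7 spheres, and the differences were 3.49 ± 0.14 (SE) and -3.50 ± 0.13 (SE) for spheres against E17.5. Mmp17, which is held at the cell surface by a lipid anchor, was at 2.87, 2.52 and 2.62 FPKM at E17.5, 3.09, 3.06 and 3.02 at E19.5 and 0.125, 0.286 and 1.84 in the adult gland. In spheres it was at 0.462 and 0.936 FPKM on day 5, 0.196, 0.541 and 0.0843 on day 7, 0.222, 0.157 and 0.454 on day 10 and 0.170, 0.373 and 0.564 on day 14. Mmp17 was higher at E17.5 than in adults by 1.2 ± 0.31 (SE, adjusted p = 0.0104) and lower in day 7 spheres than at E17.5 with a difference of -1.54 ± 0.16 (SE), and adult LG replicate 3 lay nearest to the embryonic values. Of the other membrane-type members, Mmp14, a central collagenase and activator of Mmp2, was at 1.15 to 1.62 FPKM at E17.5 and 0.161 to 1.02 in adults, a difference of 0.70 ± 0.22 (SE, adjusted p = 0.0266) that was lost in 4 of 9 left-out fits, those without E17.5 replicate 1 or 3 or adult replicate 1 or 2. Mmp24 and Mmp25 stayed at or under 1.68 FPKM in all 20 libraries, with no call.

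The stromelysins Mmp3 and Mmp10, near neighbours on chromosome 9 with similar substrates, were found in different samples. Mmp3 was at 4.92, 5.82 and 10.4 FPKM at E17.5, 29.8, 25.4 and 26.9 at E19.5 and 9.21, 15.8 and 54.4 in the adult gland. Its sphere levels were 0.0653 and 2.62 FPKM on day 5, 0.180, 1.35 and 0 on day 7, 0, 0.721 and 0.0642 on day 10 and 0, 0.0624 and 0.334 on day 14. All glands thus exceeded all spheres. Day 7 spheres were lower than adult glands with a difference of -3.91 ± 0.66 (SE, adjusted p = 0.00568), a ratio of 51.9, and lower than E17.5 with a difference of -2.46 ± 0.39 (SE, adjusted p = 0.00307). The E19.5 libraries were all above the E17.5 ones, by 1.87 ± 0.55 (SE, adjusted p = 0.145), which did not pass over all genes. Leaving out adult LG replicate 3, the highest library, brought that value to 1.87 ± 0.27 with an adjusted p of 0.00999, since the fit shares its spread with the adult libraries. Mmp10 was at 1.43 and 6.51 FPKM on day 5, 0.564, 7.95 and 3.63 on day 7, 1.84, 3.85 and 1.68 on day 10 and 4.04, 1.63 and 9.43 on day 14 in spheres. In glands, Mmp10 was listed at 0 in 7 of 9 libraries, with 0.0664 FPKM in E19.5 replicate 1 and 0.152 in adult replicate 3. It was at least 59.1-fold higher in day 7 spheres than at E17.5, where no read was seen, with a difference of 2.01 ± 0.60 (SE). Against the adult the difference was 1.94 ± 0.60 (SE). With single libraries left out, the calls of Mmp10 were lost in 4 of 6 fits against E17.5 (without day 7 replicate 3 or any E17.5 library) and in 5 of 6 against adults (all but that without day 7 replicate 1), with adjusted p up to 0.0957 and 0.127. Both were also lost with no filter, and that against adults with limma-voom on recovered reads (adjusted p = 0.055).

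Mmp12, the metalloelastase known from macrophages, and the collagenase Mmp13 were lower at E17.5 than in the adult gland. Mmp12 was at 0, 0 and 0 FPKM at E17.5, 0.0474, 0 and 0 at E19.5 and 0.630, 1.74 and 4.60 in the adult gland. In spheres, Mmp12 stood at 0.0325 and 0.0204 FPKM on day 5, 0.0597, 0.0177 and 0.293 on day 7, 0.328, 0 and 1.52 on day 10 and 1.30, 0.0311 and 0.565 on day 14. No read was seen at E17.5, and the adult mean of 2.33 FPKM was at least 143-fold higher, and E17.5 against adults gave a difference of -1.55 ± 0.37 (SE). The summed leukocyte markers were highest in adult glands as deposited, whereas the ranges overlapped when scaled to recovered reads, and their part in the level of Mmp12 was not tested. Without adult LG replicate 3, Mmp12 did not reach the minimum mean and was not tested. Mmp13 was at 0 to 0.116 FPKM at E17.5 and 0.775, 0.826 and 3.88 in adults, a difference of -1.23 ± 0.38 (SE) that was lost when any E17.5 library was left out, in one fit of all 20 libraries (adjusted p = 0.0654) and after scaling to recovered reads (adjusted p = 0.115). Mmp9, the gelatinase that is known from leukocytes and invading epithelia, was at 2.03, 1.93 and 2.26 FPKM at E17.5, 1.23, 1.13 and 1.15 at E19.5 and 0.117, 0.446 and 3.93 in the adult gland. Its levels in spheres were 0.0997 and 0.0833 FPKM on day 5, 0.122, 0.145 and 0.126 on day 7, 0.224, 0.257 and 0.980 on day 10 and 0.444, 0.540 and 7.96 on day 14. Day 7 spheres lay below E17.5 with a difference of -1.44 ± 0.11 (SE), a call lost in one fit of all 20 libraries (adjusted p = 0.0588). Sphere day 14 replicate 3 was the highest library for both Mmp9 and Mmp13, with 9.14 FPKM for the latter against 1.26 and 0.378 in the other day 14 libraries.

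**Figure D3:**
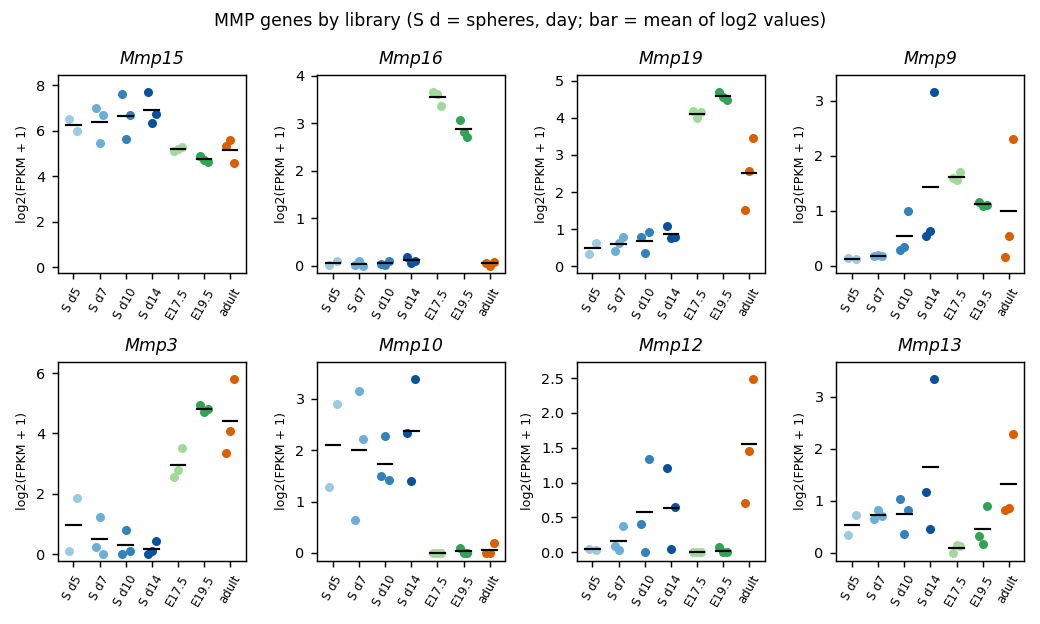
Level of 8 Mmp genes in each library as log2(FPKM + 1), by group, where points are libraries and bars the mean of the log2 values. By mean, Mmp15 and Mmp10 are highest in spheres, Mmp16 and Mmp19 in embryonic glands, and Mmp12 in the adult gland (0.63 to 4.60 FPKM).

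Mmp19, a secreted protease known to cut basement membrane components, was at 17.2, 14.8 and 16.8 FPKM at E17.5, 24.9, 22.7 and 21.2 at E19.5 and 1.88, 4.91 and 9.98 in the adult gland. Spheres had 0.266 and 0.543 FPKM on day 5, 0.336, 0.543 and 0.727 on day 7, 0.736, 0.294 and 0.883 on day 10 and 1.11, 0.700 and 0.715 on day 14. As deposited, all embryonic libraries lay above all adult ones and these above all spheres, but scaled to recovered reads adult LG replicate 1, at 0.704 FPKM, fell among the spheres. Differences were 1.59 ± 0.40 (SE, adjusted p = 0.00967) for E17.5 against adults, -3.50 ± 0.14 (SE, adjusted p = 1e-05) for day 7 spheres against E17.5 and -1.90 ± 0.47 (SE, adjusted p = 0.0225) for day 7 spheres against adults. The last call was lost without adult replicate 2 or any day 7 library, with adjusted p up to 0.0758, and after scaling to recovered reads, at -1.22 ± 0.62 (adjusted p = 0.145). Exons of Mmp19 share 28.3% of their bases with Tmem198b and Gm47093. Mmp23, an unusual membrane-bound member without the hemopexin domain, was at 1.70, 1.33 and 2.14 FPKM at E17.5, 2.35, 1.28 and 1.2 at E19.5 and 0.531, 0.809 and 0.672 in the adult gland. In spheres Mmp23 was at 0.151 and 0.441 FPKM on day 5, 0.0923, 0.492 and 0.477 on day 7, 0.145, 0.166 and 0.593 on day 10 and 0.671, 0.144 and 0.360 on day 14. It was higher at E17.5 than in adults by 0.70 ± 0.20 (SE, adjusted p = 0.0164), a call lost without E17.5 replicate 3, and lower in day 7 spheres than at E17.5 with a difference of -1.01 ± 0.18 (SE). Of the remaining Mmp genes, Mmp1b reached 1.32 FPKM and Mmp7, the matrilysin of glandular epithelia, 3.44 FPKM in spheres, both in a part of the libraries. Mmp8, the neutrophil collagenase, was at 0.689 to 1.03 FPKM at E17.5 and at most 0.13 in adults. Mmp21 reached 0.844 FPKM at E17.5, and Mmp27 reached 1.54 FPKM in adult glands. Exons shared with other genes also touched Mmp1b, Mmp7, Mmp24, Mmp28 and Adamts8, at 10.6% to 13.6% of their bases.

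Most Adamts genes had their highest levels in the embryonic gland. Adamts17, whose loss in people is linked to short stature and lens displacement, is thought to have its substrates in fibrillin microfibrils. On the log2(FPKM + 1) scale, Adamts17 had the largest difference of the tested members both between E17.5 and adult glands and between day 7 spheres and E17.5. It was at 73.6, 54.3 and 45.4 FPKM at E17.5, 51.2, 30.3 and 30.1 at E19.5 and 0.747, 0.609 and 0.304 in the adult gland. Spheres had 0.348 and 0.551 FPKM on day 5, 0.0696, 0.511 and 0.101 on day 7, 0.116, 0.870 and 0.253 on day 10 and 0.188, 0.970 and 0.139 on day 14. Embryonic libraries ranged from 30.1 to 73.6 FPKM, and the highest of all others was 0.97 FPKM. Adamts17 was higher at E17.5 than in adults by 5.22 ± 0.26 (SE, adjusted p = 1.51e-06), a ratio of means of 104, and lower in day 7 spheres than at E17.5 with a difference of -5.57 ± 0.22 (SE), a ratio of 255 between E17.5 and spheres. By ratio of means it was not the first. Mmp16 had 297 for E17.5 against adults, and Adamts2 and Mmp16 had 414 and 373 for E17.5 against day 7 spheres.

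The procollagen N-proteinases Adamts2 and Adamts3, which trim the amino end of fibrillar procollagens, were high in the same libraries. Adamts2 was at 41.6, 33.8 and 27.2 FPKM at E17.5, 28.9, 29.2 and 25.7 at E19.5 and 4.31, 7.53 and 6.53 in the adult gland. Its level in spheres was 0.0882 and 0.111 FPKM on day 5, 0.0463, 0.0822 and 0.120 on day 7, 0.133, 0.0139 and 0.186 on day 10 and 0.469, 0.0120 and 0.0258 on day 14. Embryonic, adult and sphere libraries did not overlap, and Adamts2 was higher at E17.5 than in adults by 2.31 ± 0.22 (SE, adjusted p = 4.54e-05), lower in day 7 spheres than in adults with a difference of -2.69 ± 0.23 (SE) and lower than at E17.5 with a difference of -5.0 ± 0.17 (SE). Adamts3, which also takes part in the activation of the lymphatic growth factor VEGF-C, was at 5.30, 5.43 and 5.32 FPKM at E17.5, 3.12, 3.17 and 2.89 at E19.5 and 0.153, 0.232 and 0.459 in the adult gland. In spheres, Adamts3 stood at 0.0866 and 0.0272 FPKM on day 5, 0.517, 0 and 0.185 on day 7, 0.479, 0 and 0.490 on day 10 and 0.558, 0.0621 and 0.753 on day 14. E17.5 exceeded adults by 2.32 ± 0.13 (SE) and spheres were lower than E17.5 with a difference of -2.38 ± 0.17 (SE). The 3 E19.5 values of Adamts3 lay below the 3 E17.5 values, with a difference of -0.65 ± 0.13 (SE, adjusted p = 0.0531), short of the threshold.

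Among the hyalectanases, which cleave versican and related proteoglycans, Adamts9 had the highest level. Glands had 22.9, 22.7 and 23.0 FPKM at E17.5, 22.4, 19.1 and 15.7 at E19.5 and 2.34, 2.12 and 5.10 in the adult gland. Spheres had 3.03 and 0.265 FPKM on day 5, 7.00, 0.331 and 3.70 on day 7, 5.78, 0.880 and 4.86 on day 10 and 4.30, 2.09 and 7.09 on day 14, and replicate 2 was the lowest at every day. It was higher at E17.5 than in adults by 2.58 ± 0.26 (SE, adjusted p = 6.27e-05) and lower in day 7 spheres than at E17.5 with a difference of -2.69 ± 0.62 (SE, adjusted p = 0.0136), and without E17.5 replicate 3 the latter had an adjusted p of 0.0502. Between day 7 spheres and adults the difference was -0.11 (95% interval -1.71 to 1.49, adjusted p = 0.906). Scaled to recovered reads, that difference was 0.59 (adjusted p = 0.55). Adamts9 shares 12.0% of its exon bases with 2 other genes. Adamts20, a close relative of Adamts9, was at 1.87, 2.61 and 1.56 FPKM at E17.5, 0.941, 0.940 and 1.06 at E19.5 and 0.0921, 0.0351 and 0.291 in the adult gland. Sphere values of Adamts20 were 0.0131 and 0.0164 FPKM on day 5, 0, 0 and 0 on day 7, 0, 0 and 0 on day 10 and 0, 0 and 0.0267 on day 14. Its E17.5 mean was 14.4-fold above the adult mean, by 1.39 ± 0.16 (SE), and at least 157-fold above day 7 spheres, where no read was seen. Adamts8 was at 1.53, 2.05 and 1.27 FPKM at E17.5, 0.967, 0.603 and 0.912 at E19.5 and 0.719, 0.889 and 1.59 in the adult gland. In spheres it was at 0.0255 and 0.352 FPKM on day 5, 0.0937, 0.388 and 0.0968 on day 7, 0.0245, 0.113 and 0.301 on day 10 and 0.146, 0.0974 and 0.183 on day 14. Adamts8 was lower in day 7 spheres than at E17.5 with a difference of -1.13 ± 0.17 (SE), and than in adults with a difference of -0.78 ± 0.23 (SE), the latter lost without adult replicate 2 or any day 7 library, with no filter, with the replicate block and after scaling to recovered reads, where the difference was -0.43 ± 0.29 (adjusted p = 0.259). Adamts15 was at most 0.579 FPKM in all 20 libraries, and Adamts1 reached 1.02 FPKM in them.

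Adamts7, which cleaves cartilage oligomeric matrix protein, was at 9.74, 10.0 and 10.1 FPKM at E17.5, 11.7, 11.2 and 10.9 at E19.5 and 0.264, 0.201 and 1.48 in the adult gland. It was at 1.59 and 4.08 FPKM on day 5, 1.86, 1.49 and 1.32 on day 7, 1.49, 1.43 and 2.59 on day 10 and 2.34, 0.984 and 2.28 on day 14 in spheres. The E17.5 mean was 15.4 times the adult mean, by 2.82 ± 0.26 (SE, adjusted p = 3.87e-05), and spheres at day 7 were lower than E17.5 with a difference of -2.11 ± 0.12 (SE, adjusted p = 4.07e-05). Adamts19, a member linked to heart valve development, was at 3.0, 3.60 and 3.03 FPKM at E17.5, 6.57, 6.34 and 6.31 at E19.5 and 0, 0 and 0 in the adult gland. Spheres were listed at 0 for Adamts19 in 10 of 11 libraries, with 0.0248 FPKM in day 10 replicate 3. Embryonic levels were at least 198-fold at E17.5 and 396-fold at E19.5 above the adult gland, where no read was seen. Adamts19 was also the one member that differed between the embryonic ages, higher at E19.5 than at E17.5 by 0.82 ± 0.12 (SE, adjusted p = 0.0199), with no overlap. That call was lost without any 1 of the 6 embryonic libraries, with adjusted p up to 0.117, and in 4 of 7 other settings, with adjusted p up to 0.0747. The summed epithelial and myoepithelial markers given above also rose between these ages, mostly through Krt18 and Acta2, while Cdh1 overlapped. The part of these markers was not tested. Adamts6, a regulator of fibrillin microfibrils, was at 1.02, 1.12 and 0.785 FPKM at E17.5, 0.572, 0.456 and 0.605 at E19.5 and 0.319, 0.607 and 0.336 in the adult gland. Sphere levels of Adamts6 were 0.528 and 0.246 FPKM on day 5, 0.388, 0.0984 and 0.630 on day 7, 0.928, 0.0500 and 0.549 on day 10 and 1.15, 0.159 and 1.16 on day 14, with replicate 2 lowest at every day. Its call for E17.5 over adults, 0.48 ± 0.14 (SE), was lost in one fit of all 20 libraries (adjusted p = 0.117) and without E17.5 replicate 1 or 2 or adult replicate 1, and that for spheres under E17.5, -0.54 ± 0.18 (SE), was kept only without day 7 replicate 3 among the fits that left out a library, and was lost in 6 of 7 other settings (adjusted p up to 0.0989). Adamts10, the partner of Adamts6 in its subfamily, was lower in day 7 spheres than at E17.5 with a difference of -1.07 ± 0.15 (SE, adjusted p = 0.00159). Adamts18 was at 0.51 to 0.776 FPKM in embryonic glands and was listed at 0 in all spheres and in 2 of 3 adult libraries.

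**Figure D4:**
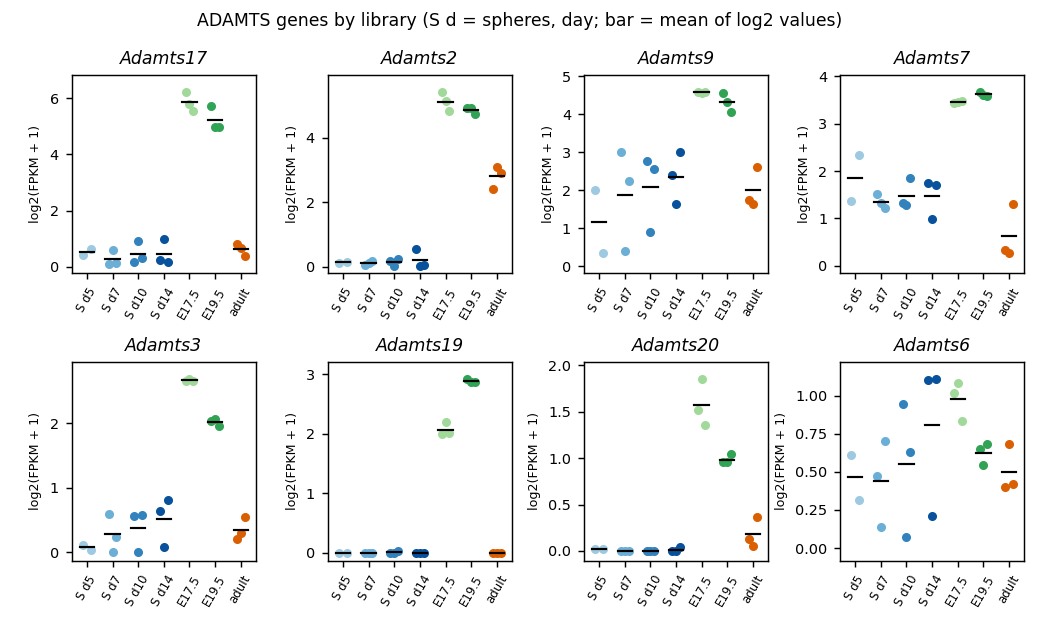
Level of 8 Adamts genes in each library as log2(FPKM + 1), by group, where points are libraries and bars the mean of the log2 values. All but Adamts6 are highest in the 6 embryonic libraries, with Adamts17 at 30.1 to 73.6 FPKM, and Adamts19 is higher at E19.5 (6.31 to 6.57 FPKM) than at E17.5 (3.0 to 3.60 FPKM).

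Counted over the comparisons, the embryonic gland stood above the adult gland for most members that could be tested. Only members with a mean of 0.5 FPKM or more over the libraries of a fit were tested. A member that passed through its high group alone had to differ, so that the counts and medians are a description only. For E17.5 against adult LG, 25 of 45 members were tested, 16 were higher and 2 lower, where 29.1% of all genes tested were called higher and 24.9% lower. Of the 17 members at 0.5 FPKM or more in both groups, 10 were higher and 0 lower, where 24.4% and 22.3% of all genes under the same minimum were. For E19.5 against adult LG, 14 of 25 were higher and 1, Mmp12, was lower, against 30.3% and 23.9% of all genes. These comparisons share the adult libraries. The median difference of the tested members was 0.94 and 0.80, against 0.05 and 0.09 over all genes. When values were rescaled to each library's own recovered reads, the median over all genes moved to 0.57 and 0.52, and 79.7% and 79.4% of all calls were higher, against 53.8% and 55.9% on the deposited scale. Members were then 20 higher and 1 lower at E17.5 and 14 and 0 at E19.5. The call of Mmp12 at E19.5 was lost there, at -1.12 ± 0.44 (SE, adjusted p = 0.0551). Between the embryonic ages, Adamts19 was the one call among 25 members, where 1.11% of all genes were higher and 0.624% lower.

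Over culture time no member was called. Day 14 against day 7 tested 14 members, with a smallest adjusted p of 0.522 and 0 at an unadjusted p under 0.05, and 0% of the 15744 genes tested were called by limma, where the smallest adjusted p was 0.335 and 1557 genes had an unadjusted p under 0.05. The slope over days 5, 7, 10 and 14 likewise called 0 of 14 members, against 2.14% of all genes. Mmp9 had the smallest adjusted p, with a slope of 0.15 ± 0.06 (SE, adjusted p = 0.196) per day on the log2 scale. Of the members with 1 replicate far from the others, Timp1 had 266 and 641 FPKM at days 7 and 14 in replicate 1, 214 and 719 in replicate 3, and 94.2 and 82.6 in replicate 2. The difference over the 3 was 0.94 (95% interval -1.2 to 3.08, adjusted p = 0.731). For Mmp15 it was 0.55 (95% interval -0.68 to 1.78, adjusted p = 0.728). Replicate numbers went together across days in spheres, which the fits above left out. With the number as a block, both time comparisons again called 0 members. limma-voom on recovered reads with the block, an alternative chosen after seeing the data, called Mmp9 alone in the slope, at 0.46 ± 0.09 per day (adjusted p = 0.00554), where the other alternatives had adjusted p from 0.105 to 0.442.

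Day 7 spheres were called different from the E17.5 gland at 20 of 25 tested members and from the adult gland at 6 of 20. Against E17.5, day 7 spheres were higher for 3 of 25 tested members (Timp1, Mmp10 and Mmp15) and lower for 17, where 18.1% and 29.6% of all genes were called higher and lower. Of the 11 members at 0.5 FPKM or more in both groups, 2 were higher and 5 lower, against 18.1% and 22.1% of all genes under the same minimum. Against the adult gland, 2 of 20 tested members were higher (Timp1 and Mmp10) and 4 were lower (Mmp3, Mmp19, Adamts2 and Adamts8), against 14.2% and 21.1% of all genes. Timp3 (adjusted p = 0.0531) lay just outside the threshold. Mmp12, at a mean of 0.124 FPKM in day 7 spheres and 2.33 in adults, was tested through the adult group alone and was not called. On the scale of recovered reads, 5 members were higher and 2 lower against adults, where 74.2% of all calls were higher there against 40.2% on the deposited scale. Among the 5, Mmp15 was higher by 2.31 ± 0.46 (SE, adjusted p = 0.00821) and Timp2 by 2.11 ± 0.63 (SE, adjusted p = 0.0336). Neither was called as deposited. Both comparisons use the same day 7 libraries, and the difference between them was not tested. The median difference of the tested members was -1.44 against E17.5 and -0.37 against adults, where all genes had -0.10 and -0.08. These medians include members tested through 1 group alone, which had to differ, and are a description only. All 10 Adamts members tested against E17.5 were lower in spheres, but only Adamts7, Adamts9 and Adamts10 were at 0.5 FPKM or more in both groups. The others were tested through E17.5 alone and had to be lower.

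**Figure D5:**
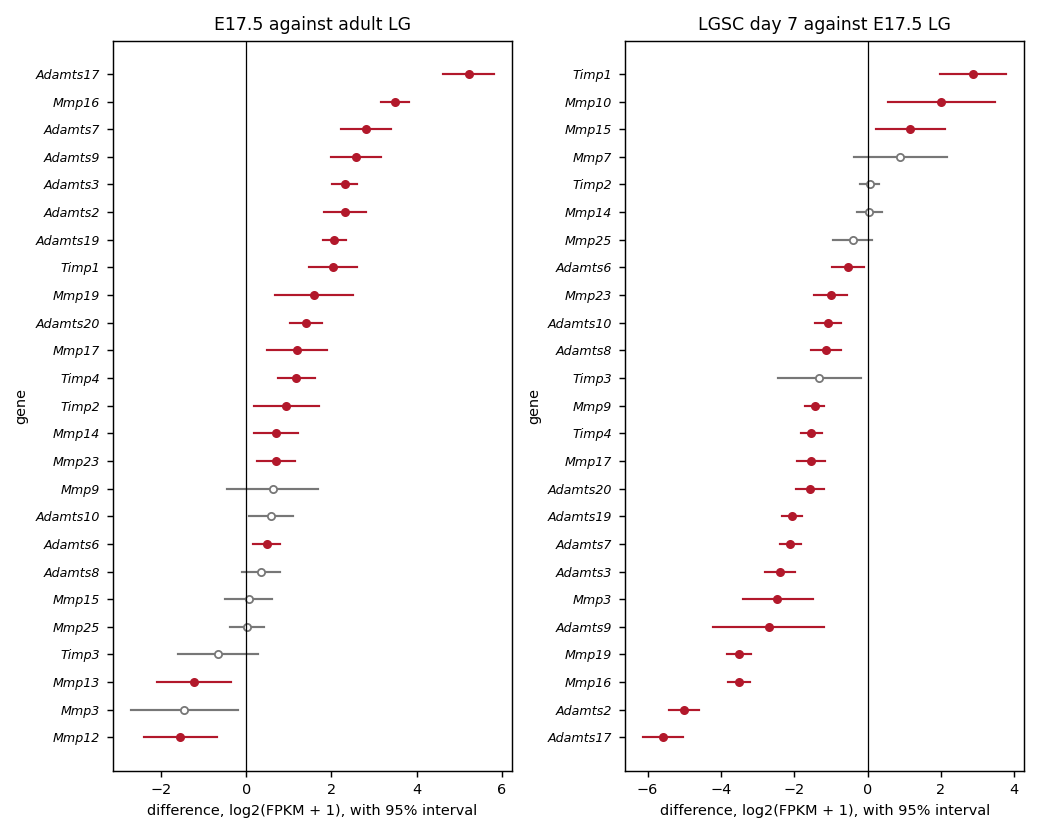
Difference of each tested member on the log2(FPKM + 1) scale with its 95% interval, for E17.5 against adult LG and for LGSC day 7 against E17.5 LG. Filled red points passed an adjusted p of 0.05 and open grey points did not, and Adamts17 lies at 5.22 in the first panel and at -5.57 in the second.

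Genes that act with the proteases, or that they cut, were read from lists. Of the 28 activators and other inhibitors, 16 were tested for E17.5 against adults, 9 were higher and 5 lower, against 29.1% and 24.9% of all genes, with a median of 0.86. Plat, tissue plasminogen activator, was higher at E17.5 by 4.29 (adjusted p = 7.44e-06). Serpine2, an inhibitor of such activators, was higher by 3.66 (adjusted p = 3.69e-07), and Reck, a membrane-anchored MMP inhibitor, by 2.77 (adjusted p = 0.000193). Prss8, an epithelial surface protease, was lower, at -2.27 (adjusted p = 2.84e-05). In day 7 spheres against E17.5, 6 of 17 were higher and 6 lower, against 18.1% and 29.6% of all genes, with a median of 0.39. Reck was lower, at -5.63 (adjusted p = 2.65e-06), while Plaur, the urokinase receptor, and St14, the epithelial protease matriptase, were higher by 2.58 (adjusted p = 0.000652) and 2.04 (adjusted p = 5.28e-05). Against adults, 5 of 15 were higher and 3 lower, where 14.2% and 21.1% of all genes were, and Serpine2 was higher by 4.51 (adjusted p = 0.000152). Plat was the one gene of the list called over culture days, with a slope of 0.20 per day (adjusted p = 0.00869), where 0.648% of all genes had a higher call. It was at 14.7, 15.8 and 23.0 FPKM at day 7 and 59.7, 48.8 and 46.7 at day 14. Plat was not called for day 14 against day 7, where 0 of 15 genes of the list were. The slope over days 7, 10 and 14 alone called 0 of 15688 genes.

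Most substrate genes that were called between glands were higher at E17.5 than in adults. Of all genes tested, 29.1% were called higher and 24.9% lower for E17.5 against adults. For day 7 spheres, 14.2% and 21.1% were against adults and 18.1% and 29.6% against E17.5. A gene of any list that was tested through its high group alone had to differ, so that the counts and medians of all lists are a description only. Of 9 interstitial collagens and fibrillins tested, 8 were higher at E17.5 than in adults and 0 lower, with a median of 5.35 against 0.05 over all genes. Col1a1 was higher by 5.36 (adjusted p = 1.8e-07) and Fbn2, a fibrillin of embryonic matrix, by 6.31 (adjusted p = 3.87e-08). All 9 were lower in day 7 spheres than at E17.5, with a median of -5.57 against -0.10 over all genes. The whole list summed to 2.15 to 3.93 FPKM in day 7 spheres and 4450 to 5320 at E17.5. Of 7 basement membrane genes, 6 were higher at E17.5 than in adults and 0 lower, among them Lama1, at 3.48 (adjusted p = 0.000165). In day 7 spheres, 5 of 9 basement membrane genes were higher and 1 lower than in adults, and 1 of 8 was higher and 5 were lower than at E17.5. Vcan, the versican that Adamts9 and Adamts20 cleave, was at 202, 198 and 252 FPKM at E17.5, 0.975, 1.72 and 2.85 in adults and 14.3, 9.82 and 17.9 in day 7 spheres. It was higher at E17.5 than in adults by 6.31 (adjusted p = 3.86e-07). Of 6 hyalectans and other substrates, 4 were higher and 2 lower at E17.5 than in adults, and all 4 tested were lower in spheres than at E17.5. Mesenchyme markers moved with these lists, since Col1a1, Col1a2, Col3a1, Dcn and Lum stand in both. Of the ADAM family, 3 of 4 genes were higher at E17.5 than in adults and Adam15 was lower. In the list of ADAMTS-like and related secreted metalloproteases, the 2 genes tested, Adamtsl2 and the related Tll1, were lower. Between E17.5 and E19.5, Col2a1, a cartilage collagen, was the one substrate called, lower at E19.5 at -3.33 (adjusted p = 0.000197), and A2m, a broad protease inhibitor, was higher by 0.77 (adjusted p = 0.0244).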

How the data were processed

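RNA sequencing of LGSC spheres and lacrimal glands was analysed in 20 libraries. Per the labels, the authors selected poly-T bound RNA, built libraries with a NEBNext Ultra kit and used CASAVA 1.8, HISAT2 2.0.5 and featureCounts 1.5.0-p3 with build NCBIM37. The authors deposited FPKM per gene. How these were made from counts is not given in the sources used here. Members were matched by Ensembl identifier to GENCODE M21 (52489 of 52636 identifiers), and coordinates were printed from RefSeq GRCm38.p6 promoters alone.

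Levels were compared as log2(FPKM + 1) for genes with a mean of 0.5 FPKM or more over the libraries of a fit, with limma 3.58.1 (R 4.3.3, moderated variance with a trend) and Benjamini-Hochberg adjustment at 0.05. The 9 tissue libraries shared 1 fit. FPKM times exon length gave whole reads (within 0.01, up to 1000 reads) for 92.6% to 93.6% of genes, which served for floors, for limma-voom and for rescaling each library to its own reads. A group with no read was set to 3 reads for a fold. Depth limits and floors cover counting error only. The fits were also run on simulated reads with a known change in some genes, drawn independently for each library with a spread set in advance. These reads had no replicate pattern and no outlying adult library, so that they cannot show how the fits behave with either.

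Members and gene lists were chosen with earlier results of these data known. Values in every library were given for members called in 2 or more comparisons, for the 3 highest in day 7 spheres, E17.5 and adult LG, and for all Timp genes; of gene lists, up to 5 called genes with the largest change were eligible. Mmp9, Mmp13, Mmp14 and other members outside this rule were described after their values were seen. Alternatives were a pseudocount of 0.1, no filter, rescaling to recovered reads, limma-voom, 1 fit of all 20 libraries, the replicate number as a block and leaving out single libraries; limma-voom with the block was added after seeing the data. The main fits held no replicate block, and replicate numbers were used only in the alternatives with the block. In spheres, same-numbered libraries deviated together from their group means (correlation 0.26 to 0.60 for days 7 and 14 and 0.26 to 0.72 over all days). Day 5 replicate 3 and the passage 6 and passage 20 spheres were not analysed here, and passage 10 was used by value alone.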

Additional observations from a re-analysis of the deposited data

Results flagged for a closer look

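The passage 10 sphere library, which enters no comparison, had 56.1 FPKM of Mmp14 and 33.2 FPKM of Adamts1. In passage 2 spheres of the same culture day, Mmp14 was at 1.19 to 1.78 FPKM and Adamts1 at 0.0407 to 0.169 FPKM. With 1 library of passage 10 the difference was not tested, and 50.6% of all genes at 10 FPKM or more in that library had a day 7 mean under 0.1 times its value.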

How the results depend on the processing

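Of the 60 calls of members, 43 held in every alternative and with each library left out, where the member could still be tested, and no call was reversed. Members at 0.5 FPKM or more in both groups made 10 of the 18 calls for E17.5 and 9 of the 15 for E19.5 against adults. They made 7 of 20 for day 7 spheres against E17.5, 3 of 6 against adults and the 1 between embryonic ages. The other calls were of members tested through 1 group alone, which had to differ, so that the 43 are a description only. By setting, 7 calls were lost with no filter, 7 with the replicate block, 7 after scaling, 5 in one fit of all 20 libraries, 3 with a pseudocount of 0.1, 3 with limma-voom and the block and 1 with limma-voom. Calls of E19.5 against E17.5 were the least stable. The 1 call there became 0 with a pseudocount of 0.1, with the replicate block, after scaling to recovered reads and with limma-voom and the block, and 2 with all 20 libraries in one fit. Leaving out single libraries gave 0 to 6 calls, 0 without any embryonic library, 2 without adult LG replicate 1 and 6 without adult LG replicate 3. Over all genes the 323 calls of that comparison became 162 with the pseudocount, 100 with the block, 170 after scaling and 511 in one fit, and 50 to 1736 with libraries left out. Day 7 spheres against adults gave 12 member calls of 26 tested in one fit of all 20 libraries, in place of 6 of 20, where 47.4% and 35.2% of all genes were called, and 3 to 8 with libraries left out, 3 without LGSC day 7 replicate 3 or adult LG replicate 2, where all calls went from 6238 to 3770 and 4151. The slope over culture days had 1 member call with limma-voom and the block, and its 334 calls over all genes became 1186 there, 783 with the block in limma, 82 with no filter, 0 for days 7, 10 and 14 alone and 11 (without LGSC day 5 replicate 1) to 384 (without day 10 replicate 2) with libraries left out. Day 14 against day 7 went from 0 to 116 calls over all genes with limma-voom and the block and to 50 in one fit, none of them a member.

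Replicate numbers of glands, and of spheres against glands, did not pair the libraries (mean correlation -0.01 to 0.03). With the replicate block members called were 18 for E17.5 and 14 for E19.5 against adults, 6 for day 7 spheres against adults and 18 against E17.5, and 53 of 60 single calls were kept. The cause of these changes was not tested. Members near 1 read per library cannot be told from 0 at this depth.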
